A study of Medicago truncatula with 24 samples.

Results

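The response described here is that of A17 roots to nitrogen deficit at a distance, measured in Medicago truncatula, a legume used as a model of nodulation, by sequencing small RNAs. Of the 24 libraries of the study 6 belong to it: 3 libraries of wild-type A17 roots under local nitrogen deficit and 3 of A17 roots under local nitrogen satiety, chosen by their labels, with all 427 listed sequences. The root system of each plant was divided at 3 weeks of age. One side, called local, received 0.05 mM KNO3 (deficit) or 10 mM NH4NO3 (satiety) for 4 days, while the other side, called systemic, got nutrient solution free of mineral nitrogen in both groups. All plants had grown with 0.5 mM KNO3 before that, under 16 h of light, and were harvested at 4 weeks of age. The series design places the sampled roots on the distant side, but the labels of the single libraries give only the organ and the local treatment. Other comparisons serve as contrasts: roots of the cra2 mutant under local deficit and satiety (3 libraries each), and shoots of A17 under local deficit and satiety (3 libraries each).

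A legume root that lacks nitrogen tells the rest of the plant through CEP peptides, which travel to the shoot and bind the receptor kinase CRA2, and the shoot answers with signals of its own. miR2111 is such a signal: it is made in the shoot, moves to the root and cuts transcripts of TML, a brake on nodulation. Plant miRNAs are cut from hairpins as a duplex of a mature strand and an opposite-arm strand, and the mature strand guides an Argonaute protein to transcripts that it matches nearly along its whole length. Because both groups had the same solution around the distant roots, the comparison asks what the nutrition of the other side changes there.

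The 6 libraries held 1564381, 1390919 and 1358742 counts under deficit and 1539333, 1661422 and 1646114 counts under satiety. In these libraries 3 counts were worth 1.81 to 2.21 CPM (a count divided by its library's total, times 1000000), and such floors cover counting error only. Of the 427 sequences 313 had counts in A17 roots and 114 had none, and 168 passed the filter on low counts. The 145 sequences with counts that did not pass held 0.0248% of the counts. Levels are given as CPM after TMM scaling, which equalises libraries by the bulk of their sequences. The organ label was checked by the first principal component over all 24 libraries (62.7% of the variance), which set every root library apart from every shoot library. Within the 6 A17 root libraries the first component (51.9%) ran from -6.53 to -2.25 in deficit libraries and from 3.59 to 6.26 in satiety libraries. No label says whether replicates are separate plants, so p-values measure only the spread between these libraries, which may be technical.

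The files name no miRNAs, so 72 mature and 24 opposite-arm sequences were given to 28 families by their bases, and 83 of these had counts in A17 roots, with 96.4% of all counts. Forms of a family are numbered by abundance in A17 roots, separately for each arm, and sequences without a family are numbered in the same way. The sequences on which the results turn follow, 5′ to 3′ in DNA letters, with the seed (bases 2 to 8) in capitals. The first set holds near-identical forms of a family, with the same seed except in miR172, that are compared with each other in the results, with miR159, a close relative of miR319.
miR396 form 1: tTCCACAGctttcttgaactg
miR396 form 2: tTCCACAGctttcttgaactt
miR166 form 1: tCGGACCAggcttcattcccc
miR166 form 2: tCGGACCAggcttcattccta
miR167 form 1: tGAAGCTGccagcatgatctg
miR167 form 2: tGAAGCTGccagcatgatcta
miR319 form 1: tTGGACTGaagggagctccc
miR319 form 2: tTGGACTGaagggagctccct
miR159 form 1: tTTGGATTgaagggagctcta
miR172 form 1: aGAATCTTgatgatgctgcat
miR172 form 2: aGAATCCTgatgatgctgcag

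The second set holds the families of long-distance and nutrient signalling and most of the other families whose main form was called, shown because their levels are given by role in the results.
miR2111 form 1: tAATCTGCatcctgaggttta
miR2111 opposite-arm form 3: gTCCTCGGgatacagattact
miR2111 opposite-arm form 5: aGCCTCGGagtgcggattatc
miR399 form 1: tGCCAAAGgagatttgccctg
miR399 form 2: tGCCAAAGgagagctgccctg
miR398 form 2: tGTGTTCTcaggtcgcccctg
miR160 form 1: tGCCTGGCtccctgaatgcca
miR164 form 1: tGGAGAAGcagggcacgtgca
miR164 form 2: tGGAGAAGcagggcacatgct
miR168 form 1: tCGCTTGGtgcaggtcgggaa
miR168 opposite-arm form 1: cCCGCCTTgcatcaactgaat
miR5213 form 1: tACGTGTGtcttcacctctgaa
miR2118 form 1: tTACCGATtccacccattccta
miR1507 form 1: cCTCGTTCcatacatcatctag

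The third set holds sequences without a family: the 24-nt sequences that rose and the largest changes among the rest. The last ones listed had some of the smallest p-values in the comparison with cra2, where no difference passed.
unassigned sequence 36: aGGTTGTTtcttgaagtgcaaggc
unassigned sequence 67: cGTGACAAcacatcattggatgca
unassigned sequence 77: gAATTGATtatgtttggatacact
unassigned sequence 95: tGATAGTGtcaactagtacag
unassigned sequence 32: cCAGTTCTgcgttcatgtccc
unassigned sequence 46: gGCATGGGatagtagggaaga
unassigned sequence 19: tTTTCCAAttctaagtctatc
unassigned sequence 12: gCTGGAAGgttttgtaggaac
unassigned sequence 13: aCCGGATTtccttgattaaag

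Distant A17 roots had more of the main mature form of miR319, miR160, miR164, miR172, miR2111, miR5213 and miR396 under deficit than under satiety. They had less of that of miR168, miR399, miR2118, miR1507, miR1509, miR390, miR166 and miR156. Summed per family, miR396, miR1509, miR390, miR166 and miR156 did not pass the threshold given below. Of 168 sequences tested 52 passed (31%; edgeR quasi-likelihood test, Benjamini-Hochberg adjusted p under 0.05), 25 of them higher (14.9%) and 27 lower (16.1%) under deficit. Changes were moderate, with a median absolute log2 change of 0.81 among the called sequences and extremes of 1.72 and -1.72. The libraries of the groups did not overlap for 75 of the 168 sequences (44.6%), and for 50 of the 52 that were called. Of the called sequences 29 belonged to a family and 23 did not (11 higher, 12 lower). Calls were more frequent among abundant sequences. Of 34 tested sequences at 1000 CPM and more, 29.4% were higher and 41.2% lower. Of 77 at 10 to 100 CPM, 14.3% were higher and 3.9% lower.

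The counts of calls rest on single libraries and on the scaling. Without satiety library 3 only 16 sequences passed, without deficit library 1 19, without satiety library 1 29, and without satiety library 2 34. In all of the 6 fits that left out a library 11 calls were kept (7 higher, 4 lower), and 33 were kept in 3 or fewer. The split was 24 higher and 28 lower with RLE scaling, 24 and 11 with library totals, and 39 and 6 with upper-quartile scaling. The median log2 change of all sequences was 0.00 with TMM, 0.09 with library totals and 0.27 with upper-quartile scaling. DESeq2 called the same 52 sequences.

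**Figure D1:**
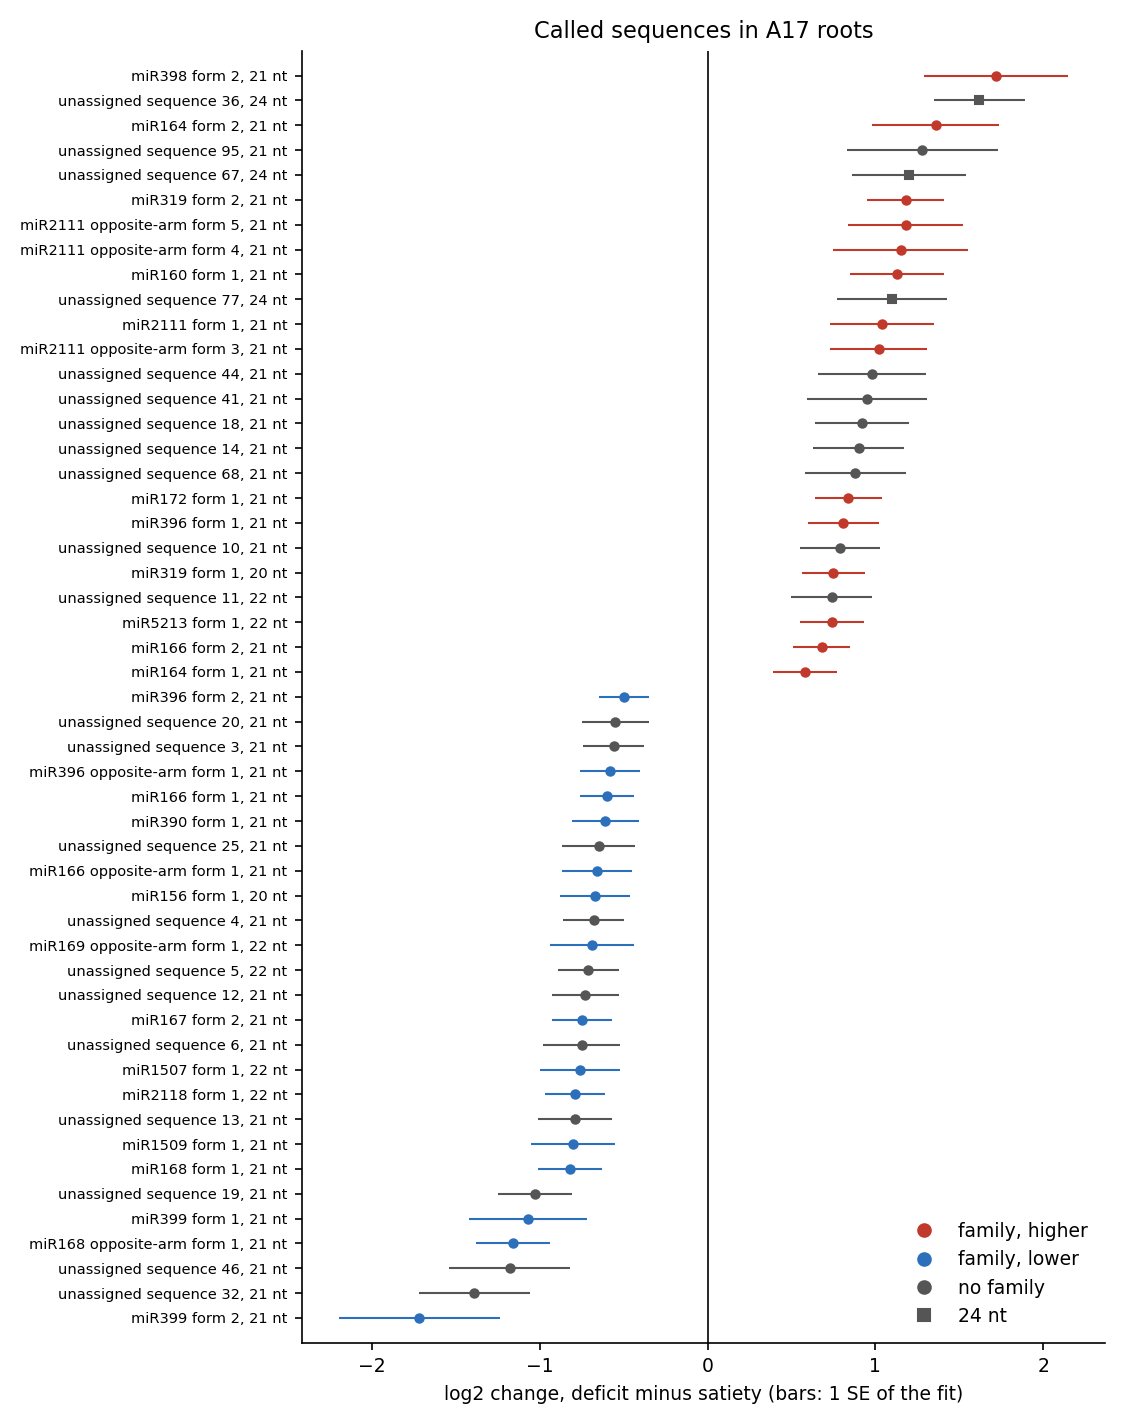
Called sequences of A17 roots (51 of the 52) by log2 change, deficit minus satiety, with 1 SE of the fit as bars. Red and blue mark family members that were higher or lower, grey marks sequences without a family, and squares mark 24-nt sequences, all 3 of which lie to the right of 0.

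Summed per family, 11 of 25 tested families passed (36 of all 132 rows of that table, 27.3%). Higher were miR319, miR160, miR2111, miR5213, miR172, miR164 and miR171, and lower were miR399, miR168, miR2118 and miR1507. In the family table the median log2 change of all rows was 0.12, so rises there are read against a shift. Families of 1 sequence show a larger shift between the tables. In the family table miR5213 stood at 0.96, miR2118 at -0.58 and miR159 at 0.13. In the sequence table the same counts gave 0.74, -0.79 and -0.08. With the scaling factors of the sequence table, an alternative added after the data were seen, 13 families passed (6 higher, 7 lower). Without satiety library 3 only 3 families passed, and without deficit library 1 7 did.

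**Figure D2:**
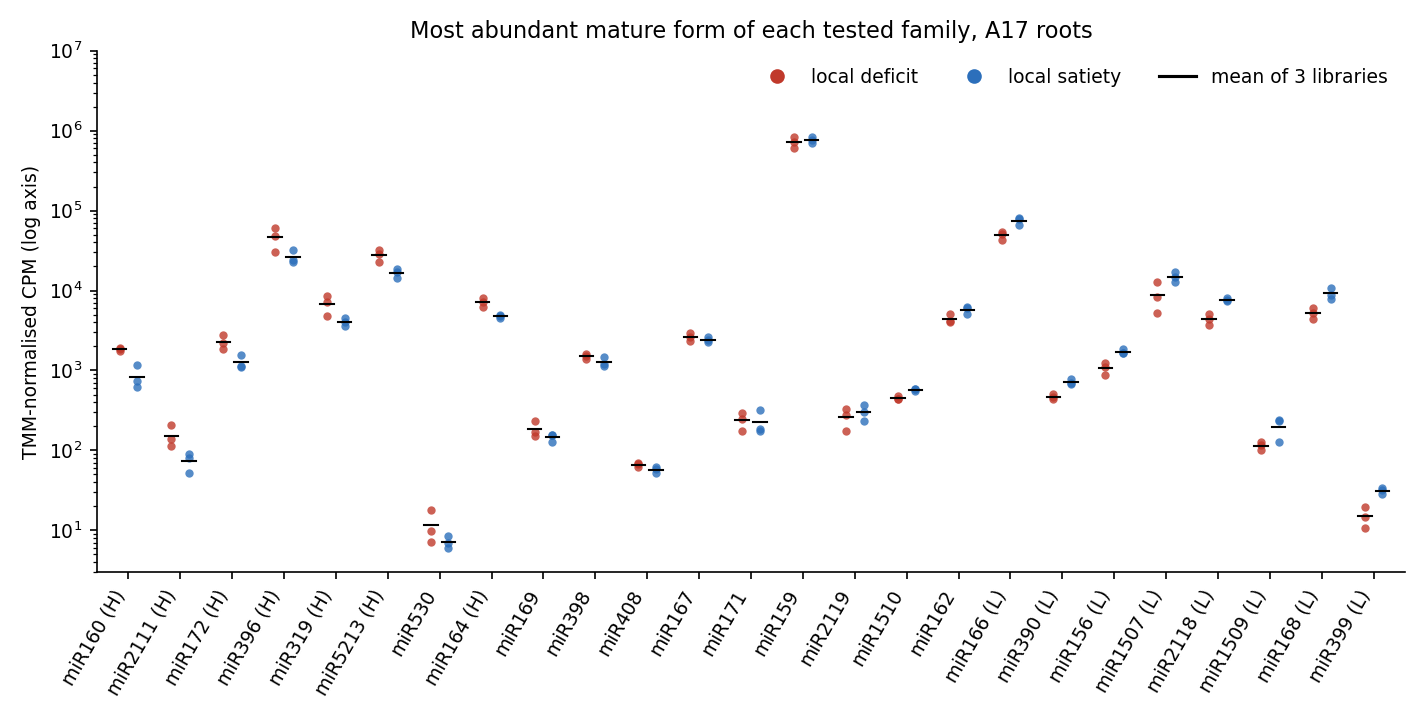
TMM-normalised CPM (log axis) of the most abundant mature form of each tested family in the 6 A17 root libraries, deficit left and satiety right, with the mean of 3 libraries as a bar. H and L mark forms that passed as higher or lower, and families run in the order of their log2 change, with miR160 at one end (1.13) and miR399 at the other (-1.07).

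miR2111 rose in distant roots of deficit plants on both arms. Its mature form 1 stood at 209.5, 112.1 and 137.0 CPM in deficit roots and at 51.5, 91.02 and 80.69 CPM in satiety roots. Every deficit library lay above every satiety library, a log2 change of 1.04 ± 0.31 (SE, n = 3 and 3; adjusted p = 0.0178). Opposite-arm form 5 had 65.67, 41.55 and 59.45 CPM in deficit roots and 26.09, 18.85 and 28.69 CPM in satiety roots. Its libraries did not overlap either (log2 1.18 ± 0.34, adjusted p = 0.0139). Opposite-arm form 3 had 60.04, 55.66 and 69.15 CPM in deficit roots and 27.47, 27.96 and 35.27 CPM in satiety roots, a change of 1.02 ± 0.29 (adjusted p = 0.0132).

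Opposite-arm form 4 had 73.18, 46.25 and 60.10 CPM in deficit roots and 26.78, 15.60 and 38.25 CPM in satiety roots (log2 1.15 ± 0.40, adjusted p = 0.0309). The most abundant opposite-arm form had 156.4, 141.9 and 223.6 CPM in deficit roots and 96.82, 91.67 and 120.1 CPM in satiety roots, again without overlap. At 0.76 ± 0.37 it did not pass (adjusted p = 0.129). In all, 4 of the 6 tested miR2111 sequences (66.7%) passed as higher, where 14.9% of all sequences did, and none as lower, with a median log2 change of 1.03 against 0.00 over all tested sequences. The family sum changed by 1.16 ± 0.32 (adjusted p = 0.0125), but it passed in only 1 of 6 fits without a library. The calls of the single forms were lost, at adjusted p up to 0.139, without satiety library 1 (forms 3, 4, 5 and the mature form), deficit library 1 (forms 4, 5 and mature), satiety library 2 (forms 4 and 5), satiety library 3 (mature), and deficit libraries 2 and 3 (form 4).

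The phosphate family miR399, which cuts transcripts of the phosphate regulator PHO2, moved the other way. miR399 form 2 had 5.003, 3.136 and 6.462 CPM in deficit roots and 17.17, 13 and 19.13 CPM in satiety roots. The groups were separate (log2 -1.72 ± 0.48, adjusted p = 0.0131), at levels of only a few counts under deficit. Form 1 had 10.63, 19.60 and 14.86 CPM in deficit roots and 34.33, 31.86 and 28.09 CPM in satiety roots (log2 -1.07 ± 0.35, adjusted p = 0.0226). Both tested forms of the list passed as lower, where 16.1% of all sequences did. They share the seed and differ inside the sequence, and the family sum fell by 0.89 ± 0.30 on the log2 scale (adjusted p = 0.0347). The calls were lost, at adjusted p up to 0.196, without deficit library 1 or satiety library 3 (both forms), deficit library 2 (form 2), or deficit library 3, satiety library 1 or satiety library 2 (form 1). Form 1 also missed the threshold with library totals and with upper-quartile scaling.

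Of the copper group 1 of 4 tested sequences was called as higher (25%, where 14.9% of all sequences were). miR398 form 2, a copper-starvation miRNA that targets copper/zinc superoxide dismutase, had 96.32, 84.67 and 69.79 CPM in deficit roots and 33.65, 20.15 and 22.12 CPM in satiety roots. It was the largest rise of all (log2 1.72 ± 0.43, adjusted p = 0.0086), and it did not hold without deficit library 1, satiety library 2 or satiety library 3 (adjusted p up to 0.0752). The more abundant miR398 form 1 changed by 0.23 ± 0.23 (adjusted p = 0.45), so the family sum, at 0.48 ± 0.22, did not pass (adjusted p = 0.107). miR408, which targets transcripts of copper proteins such as laccases, stood at 0.21 ± 0.32 and miR2119 at -0.22 ± 0.26, neither called. The sulfate family miR395, miR393 and miR397 had too few counts to be tested, and no sequence was assigned to miR827.

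The organ development list (miR159, miR166, miR171, miR319 and miR396 here) had 4 sequences higher and 4 lower of 18 tested (22.2% each), near the 14.9% and 16.1% of all sequences. miR319, which targets TCP transcription factors of leaf and root growth, rose in both of its called forms. Its form 2 had 4705, 5845 and 3241 CPM in deficit roots and 2204, 2356 and 1534 CPM in satiety roots (log2 1.18 ± 0.23, adjusted p = 0.00281). Its form 1, a base shorter at the 3′ end, had 7124, 8508 and 4787 CPM in deficit roots and 4038, 4538 and 3574 CPM in satiety roots (log2 0.75 ± 0.19, adjusted p = 0.00865). All deficit libraries exceeded all satiety libraries in both forms, and both calls held in each of the 6 fits without a library. The family sum rose by 1.12 ± 0.20 on the log2 scale (adjusted p = 0.000891).

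miR159 form 1, which targets GAMYB transcription factors and resembles miR319, did not pass. This sequence alone took 73.4 ± 3.55% of the counts in deficit roots and 73.5 ± 2.51% in satiety roots (SD, n = 3 each). In normalised terms it had 713218, 841757 and 615987 CPM in deficit roots and 770160, 823275 and 701656 CPM in satiety roots (log2 -0.08 ± 0.17, adjusted p = 0.754). The ranges overlap fully. Its sign turned to positive with upper-quartile scaling (0.20) and in 4 other fits.

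In miR396, which targets growth-regulating factors, forms that differ by a single base moved in opposite directions. Form 1 had 60866, 30451 and 47971 CPM in deficit roots and 32327, 24316 and 22683 CPM in satiety roots (log2 0.81 ± 0.21, adjusted p = 0.009). The lowest deficit library lay below the highest satiety library, and the call still held in all 6 fits without a library. Form 2 had 20607, 20222 and 24707 CPM in deficit roots and 30526, 29951 and 32382 CPM in satiety roots, with no overlap (log2 -0.50 ± 0.15, adjusted p = 0.0178). That fall was lost without any library other than deficit library 3 (adjusted p up to 0.133), with library totals, with upper-quartile scaling and with only the 6 A17 libraries in the fit. The substitution between form 1 and form 2 is G21T, counted from 1 at the 5′ end of form 1, so the seed is the same.

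The ratio of the forms within a library needs no scaling between libraries. miR396 form 1 over form 2 was 2.95, 1.51 and 1.94 in deficit roots and 1.06, 0.812 and 0.700 in satiety roots. Form 1 outnumbered form 2 in every deficit library, and in 1 of 3 satiety libraries. The exact two-sided permutation p was 0.10, the smallest that 3 against 3 libraries allow, and 0.36 after adjustment over 40 pairs of mature forms. In cra2 roots the same ratio was 2.62, 2.21 and 2.43 under deficit and 0.917, 0.753 and 0.808 under satiety. In A17 shoots it lay the other way round, at 0.304, 0.187 and 0.216 under deficit and 0.896, 0.674 and 0.406 under satiety.

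miR166, which restrains HD-ZIP III factors of vascular and root patterning, showed the same kind of split. Form 1 had 42618, 53810 and 50969 CPM in deficit roots and 77438, 65733 and 80740 CPM in satiety roots (log2 -0.60 ± 0.16, adjusted p = 0.0119). Form 2 had 10412, 12512 and 9083 CPM in deficit roots and 7163, 6259 and 6561 CPM in satiety roots (log2 0.68 ± 0.17, adjusted p = 0.0086). Neither overlapped. The fall of form 1 was lost without deficit library 1 or 3, satiety library 1 or 3 (adjusted p up to 0.129) and with upper-quartile scaling, whereas the rise of form 2 held in all 6 fits without a library. Written from form 2 to form 1 the substitutions are T20C and A21C. Form 2 over form 1 was 0.244, 0.233 and 0.178 in deficit roots and 0.0925, 0.0952 and 0.0813 in satiety roots, without overlap. In cra2 roots that ratio was 0.121, 0.117 and 0.123 under deficit and 0.0806, 0.0623 and 0.0506 under satiety. There form 1 fell (-0.81 ± 0.16, adjusted p = 0.00158), but form 2 did not pass (0.12 ± 0.17, adjusted p = 0.631). The family sum in A17 roots, -0.25 ± 0.15, did not pass (adjusted p = 0.204).

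In miR167, which targets the auxin response factors ARF6 and ARF8, form 2 fell and form 1 did not pass. Form 2 had 910.0, 1214 and 1273 CPM in deficit roots and 2037, 1908 and 1761 CPM in satiety roots (log2 -0.75 ± 0.18, adjusted p = 0.00793). Form 1, which differs by G21A written from form 1 to form 2, had 2586, 2959 and 2354 CPM in deficit roots and 2612, 2252 and 2423 CPM in satiety roots (0.12 ± 0.17, adjusted p = 0.634). The fall of form 2 missed the threshold without deficit library 1 (adjusted p = 0.0837) and with upper-quartile scaling. Form 1 over form 2 was 2.84, 2.44 and 1.85 in deficit roots and 1.28, 1.18 and 1.38 in satiety roots. In cra2 roots it was 1.77, 1.92 and 2.08 under deficit and 1.12, 1.20 and 0.937 under satiety, so the groups were separate in each genotype.

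Of the 40 pairs of tested mature forms of a family, 11 (27.5%) had ratios that did not overlap between deficit and satiety roots, each at an exact p of 0.10. miR172 form 1 over form 2, which differ at T7C in the seed and at T21G, was 3.50, 5.89 and 3.90 in deficit roots and 2.33, 2.87 and 2.16 in satiety roots. In cra2 roots that ratio overlapped, at 5.50, 4.99 and 6.91 under deficit and 5.54, 6.98 and 4.38 under satiety. The pairs shown were picked after their values had been seen, and forms so alike can share reads at counting.

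**Figure D3:**
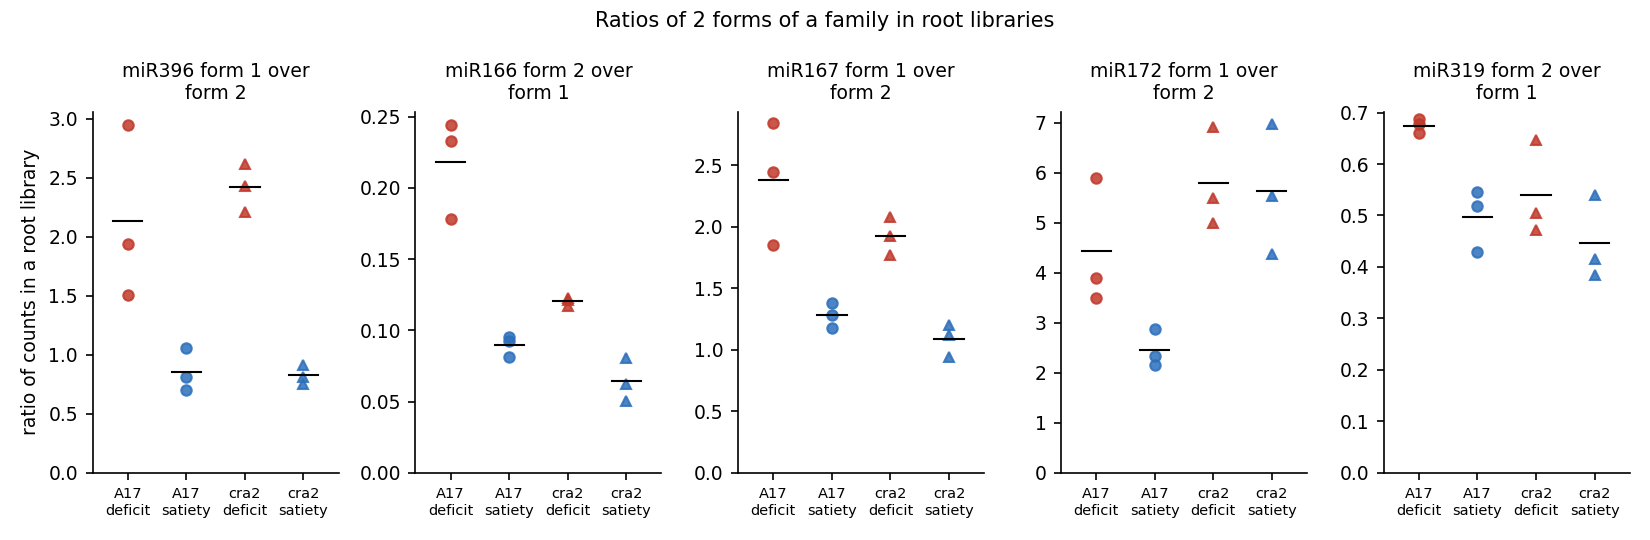
Ratio of counts of 2 forms of a family in each root library, with A17 as circles, cra2 as triangles, deficit in red and satiety in blue, and the group mean as a bar. The miR396, miR166 and miR167 ratios are higher under deficit in every library of both genotypes, while the miR172 ratio separates the groups in A17 and overlaps in cra2.

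Of 7 tested sequences of auxin-related families 3 were higher (42.9%, where 14.9% of all sequences were) and 2 lower (28.6%, where 16.1% were). Their median level was 1342 CPM, and of all sequences at 1000 CPM and more 29.4% were higher and 41.2% lower. miR160 form 1, which targets the auxin response factors ARF10, ARF16 and ARF17, had 1928, 1834 and 1768 CPM in deficit roots and 1178, 728.2 and 612.7 CPM in satiety roots. The groups were well apart (log2 1.13 ± 0.28, adjusted p = 0.00853), and the call held in all 6 fits without a library. miR164 form 1, which targets NAC factors of lateral root and organ boundaries, had 6210, 8084 and 7164 CPM in deficit roots and 4788, 4570 and 4976 CPM in satiety roots (log2 0.58 ± 0.19, adjusted p = 0.0199). The rarer miR164 form 2 had 39.40, 34.49 and 27.79 CPM in deficit roots and 17.17, 13.65 and 8.966 CPM in satiety roots (1.36 ± 0.38, adjusted p = 0.0132). Without satiety library 3 both miR164 calls were lost, as was form 2 without deficit library 1 and form 1 without deficit library 2 or satiety library 1 (adjusted p up to 0.0904). miR390, which starts the tasiRNA pathway against ARF3 and ARF4, averaged 470.1 ± 33.7 CPM in deficit roots and 716.0 ± 53.4 CPM in satiety roots (SD, n = 3 each). Its fall was 0.61 ± 0.20 on the log2 scale (adjusted p = 0.0231). The call was lost without any library other than deficit library 2 (adjusted p up to 0.173). It was also lost with library totals, with upper-quartile scaling, with only the 6 A17 libraries in the fit and without the miR159 sequence. In the family table the same counts of miR390 gave -0.40 ± 0.19 and did not pass (adjusted p = 0.113).

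Of 7 tested phase change sequences 1 form of miR172 was higher and 1 form of miR156 lower (14.3% each, at the 14.9% and 16.1% of all sequences), and the other 5 did not pass. miR172 form 1, which targets AP2-type factors, had 2762, 2234 and 1834 CPM in deficit roots and 1105, 1558 and 1142 CPM in satiety roots (log2 0.84 ± 0.20, adjusted p = 0.00653), a call that held in all 6 fits without a library. miR172 form 2 had 788.1, 379.4 and 470.5 CPM in deficit roots and 475.2, 543.5 and 527.8 CPM in satiety roots (0.08 ± 0.24, adjusted p = 0.807). miR156 form 1, which targets SPL factors, averaged 1078 ± 188 CPM in deficit roots and 1720 ± 122 CPM in satiety roots (log2 -0.67 ± 0.21, adjusted p = 0.0191). The other 2 tested miR156 forms had log2 changes of -1.07 ± 0.57 and -0.92 ± 0.71 and did not pass, nor did the family sum (-0.60 ± 0.31, adjusted p = 0.159). The call of form 1 was lost without deficit library 1 or 2 or satiety library 2 or 3 (adjusted p up to 0.18), with library totals and with upper-quartile scaling.

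Among the triggers of phased siRNAs, many of which target NB-LRR resistance genes, 3 of 6 tested sequences were lower (50.0%, where 16.1% of all sequences were) and 1 was higher (16.7%, where 14.9% were). These 6 had a median level of 3277 CPM, and at 1000 CPM and more 41.2% of all sequences were lower and 29.4% higher. miR2118 form 1 had 4464, 3685 and 5137 CPM in deficit roots and 7324, 7966 and 7661 CPM in satiety roots. The groups were far apart (log2 -0.79 ± 0.18, adjusted p = 0.00653), and the call held in all 6 fits without a library, though not with upper-quartile scaling. miR1507 form 1 had 5288, 8411 and 12760 CPM in deficit roots and 14802, 12956 and 16906 CPM in satiety roots, with wide spread under deficit (-0.76 ± 0.24, adjusted p = 0.0193). miR1509 form 1 averaged 114.2 ± 12.4 CPM in deficit roots and 198.4 ± 62.5 CPM in satiety roots (-0.80 ± 0.25, adjusted p = 0.0191). miR5213 form 1 went the other way and was among the 5 most abundant sequences: it had 31819, 28397 and 22611 CPM in deficit roots and 18515, 16834 and 14295 CPM in satiety roots (0.74 ± 0.19, adjusted p = 0.009). Without satiety library 3 the calls of miR1507, miR1509 and miR5213 were lost, and those of miR1507 and miR1509 also without deficit library 1, deficit library 2 or satiety library 2, and miR1509 without deficit library 3 (adjusted p up to 0.18). miR1507 and miR1509 also missed the threshold with library totals and with upper-quartile scaling.

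Of 3 tested sequences of the small RNA machinery list 2 were lower (66.7%, where 16.1% of all sequences were), and both are arms of miR168. The list had a median level of 5093 CPM, and 41.2% of all sequences at 1000 CPM and more were lower. miR168 targets AGO1, the main Argonaute of the miRNA pathway. Its form 1 had 6004, 4401 and 5176 CPM in deficit roots and 7951, 8852 and 10785 CPM in satiety roots (log2 -0.82 ± 0.19, adjusted p = 0.00653), a call lost without satiety library 3 (adjusted p = 0.0643). The opposite arm had 1378, 1633 and 2437 CPM in deficit roots and 4345, 3404 and 4415 CPM in satiety roots. It held in all 6 fits without a library (-1.16 ± 0.22, adjusted p = 0.00192). miR162, which targets DCL1, the enzyme that cuts miRNA precursors, stood at -0.37 ± 0.17 and did not pass (adjusted p = 0.115).

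Both arms were measured in several families. The opposite arm of miR396 had 6404, 5722 and 6405 CPM in deficit roots and 9807, 7893 and 9977 CPM in satiety roots (log2 -0.58 ± 0.18, adjusted p = 0.0191), which is the direction of mature form 2 and not of mature form 1. The share of the family's counts held by its 3 opposite-arm sequences together was 7.55%, 10.4% and 8.33% in deficit roots. In satiety roots that share was 13.8%, 13% and 15.8%, without overlap. The exact two-sided permutation p was 0.10, or 0.27 after adjustment over the 8 families with such a share. In cra2 roots it averaged 7.15 ± 0.744% under deficit and 10.8 ± 1.81% under satiety, and in A17 shoots 10.1 ± 0.963% under deficit and 14.0 ± 0.935% under satiety (SD, n = 3 each). The opposite arm of miR169, whose mature strand targets NF-YA factors, had 112.0, 110.5 and 118.9 CPM in deficit roots and 160.7, 175.5 and 214.0 CPM in satiety roots. It was the only called sequence of 7 tested in that family (14.3% lower, near the 16.1% of all sequences). Its change was -0.69 ± 0.25 (adjusted p = 0.0433), and none of the 6 fits without a library kept the call (adjusted p up to 0.279). Mature miR169 form 1 had 232.7, 170.9 and 151.9 CPM in deficit roots and 155.9, 156.7 and 128.5 CPM in satiety roots (0.33 ± 0.27, adjusted p = 0.369). The opposite-arm share of miR169 was 27.2 ± 5.13% in deficit roots and 41.4 ± 6.37% in satiety roots.

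The opposite arm of miR166 followed mature form 1, with 2315, 2335 and 2363 CPM in deficit roots and 4086, 2634 and 4371 CPM in satiety roots (-0.66 ± 0.21, adjusted p = 0.0192). That call was lost without any library other than satiety library 2 (adjusted p up to 0.155), with library totals and with upper-quartile scaling. The call of the miR396 opposite arm was likewise lost without deficit library 1 or 2 or satiety library 1 or 3 (adjusted p up to 0.127), with both of those scalings and with only the 6 A17 libraries in the fit. Of miR171, which targets GRAS factors, the opposite arm made up 73.2 ± 0.814% of the counts in deficit roots and 69.7 ± 3.14% in satiety roots. That sequence had 1199, 807.5 and 920.2 CPM in deficit roots and 808.2, 662.5 and 673.6 CPM in satiety roots and did not pass (0.45 ± 0.19, adjusted p = 0.0816). The miR171 sum did (0.59 ± 0.19, adjusted p = 0.0287), but with RLE scaling, library totals, upper-quartile scaling, either other filter, only the 6 A17 libraries or the sequence table's factors it did not, and it passed in 1 of 6 fits without a library. The shares of the opposite arm of miR168 (25.9 ± 6.75% in deficit roots and 30.7 ± 4.05% in satiety roots) and of miR2111 (74.5 ± 6.45% and 75.8 ± 6.55%, in the same order) overlapped.

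The listed sequences of 24 nt took a larger share of the counts in the deficit libraries than in the satiety libraries. This length class is typical of siRNAs that direct DNA methylation, but whether the listed ones are such siRNAs was not tested. The counts cover listed sequences only, so they do not measure all 24-nt small RNAs of the roots. The 24-nt share of all counts was 0.0556%, 0.0504% and 0.0587% in deficit roots and 0.0340%, 0.0330% and 0.0352% in satiety roots. The libraries did not overlap, at the smallest exact two-sided permutation p that the design allows (0.10, and 0.25 adjusted over 5 lengths). Of the 17 tested 24-nt sequences 3 were higher (17.6%, near the 14.9% of all sequences) and none lower, and their median log2 change was 0.46 against 0.00 over all 168 sequences. Unassigned sequence 36 had 128.2, 145.8 and 90.47 CPM in deficit roots and 44.63, 36.41 and 37.66 CPM in satiety roots. It had the smallest p of the comparison (log2 1.62 ± 0.27, adjusted p = 0.000887) and held in all 6 fits without a library. The 24-nt share without unassigned sequence 36 was not computed, so how far the larger share rests on it was not tested. Unassigned sequence 67 had 43.78, 30.57 and 29.73 CPM in deficit roots and 10.99, 23.41 and 10.76 CPM in satiety roots (1.20 ± 0.34, adjusted p = 0.013). Unassigned sequence 77 had 27.52, 25.09 and 16.80 CPM in deficit roots and 12.36, 11.70 and 8.368 CPM in satiety roots (1.10 ± 0.33, adjusted p = 0.0178). Both calls were lost without deficit library 1, satiety library 1 or satiety library 3 (adjusted p up to 0.0902).

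Sequences of 20 nt held 0.830%, 0.888% and 0.698% of counts in deficit roots and 0.546%, 0.579% and 0.559% in satiety roots, also without overlap (exact two-sided permutation p = 0.10, 0.25 adjusted), and miR319 form 1 is one of them. Without the miR159 sequence in the total the 20-nt shares overlapped, at 3.10 ± 0.780% in deficit roots and 2.13 ± 0.263% in satiety roots (exact permutation p = 0.20). The share of 22-nt sequences was 4.85 ± 0.577% in deficit roots and 4.50 ± 0.299% in satiety roots (exact permutation p = 0.40). Without the miR159 sequence the 22-nt shares did not overlap, at 18.3 ± 0.376% in deficit roots and 17 ± 0.495% in satiety roots (exact permutation p = 0.10, 0.17 adjusted).

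Among other sequences without a family, the largest fall was that of unassigned sequence 32, with 26.89, 68.20 and 78.84 CPM in deficit roots and 138.0, 119.0 and 197.2 CPM in satiety roots (log2 -1.39 ± 0.33, adjusted p = 0.00793). Unassigned sequence 46 had 15.64, 24.30 and 43.94 CPM in deficit roots and 56.99, 51.36 and 82.49 CPM in satiety roots (-1.18 ± 0.36, adjusted p = 0.0191). Neither overlapped, but sequence 32 was lost without deficit library 1 or satiety library 3, and sequence 46 also without deficit library 2 (adjusted p up to 0.148), with library totals and with upper-quartile scaling. Unassigned sequence 19 had 283.9, 293.2 and 411.0 CPM in deficit roots and 570.6, 894.6 and 552.9 CPM in satiety roots (-1.03 ± 0.22, adjusted p = 0.00405). That fall held in all 6 fits without a library. Unassigned sequence 95, with 18.76, 11.76 and 10.34 CPM in deficit roots and 4.806, 9.752 and 2.391 CPM in satiety roots, rose by 1.28 ± 0.45 (adjusted p = 0.0354), which was lost without deficit library 1 or 2 or satiety library 1 or 3 (adjusted p up to 0.156). The counts come from whole roots, so fewer cells of a type and less small RNA per cell cannot be told apart.

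The same comparison in roots of cra2, which lacks a working receptor for CEP peptides, tested whether the response of A17 roots differed from that of the mutant. In cra2 roots 48 of the 168 sequences passed (28.6%), and 26 were called in both genotypes, 11 higher and 15 lower in each, which is 50.0% of the A17 calls and 54.2% of the cra2 calls. Of the 52 A17 calls 46 had the same sign in cra2 and 6 the other sign. The share of equal signs over all 168 sequences was not computed, so this count has no background to be read against. Called the same way in both were miR319 forms 1 and 2, miR396 forms 1 and 2, miR166 form 1, miR168 on both arms, miR2118, miR1507 and miR167 form 2. miR319 form 2, for one, had a log2 change of 1.18 in A17 and 1.18 in cra2.

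No difference between the responses of A17 and cra2 roots passed among the 168 sequences (0%; edgeR quasi-likelihood test of the interaction, smallest adjusted p = 0.376). DESeq2 called none either (smallest adjusted p = 0.221), and 21 sequences had an unadjusted p under 0.05, 10 more positive and 11 more negative in A17. The median SE of the difference over the 52 A17 calls was 0.33 and the median absolute difference 0.36 (log2), so differences of that size were not detectable at this depth and replication. Without cra2 deficit library 2, 1 sequence passed.

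The 3 smallest p-values of that test belonged to miR171 opposite-arm form 1 and unassigned sequences 12 and 13. Unassigned sequence 12 had 633.6, 815.3 and 511.2 CPM in A17 deficit roots and 1035, 1160 and 1063 CPM in A17 satiety roots, a fall that passed (-0.73 ± 0.20, adjusted p = 0.0122). In cra2 it had 561.3, 672.3 and 782.4 CPM in deficit roots and 602.0, 591.5 and 586.9 CPM in satiety roots (0.18 ± 0.20), a difference of -0.91 ± 0.28 (unadjusted p = 0.0041, edgeR). Unassigned sequence 13 had 604.2, 464.9 and 596.5 CPM in A17 deficit roots and 965.4, 771.1 and 1142 CPM in A17 satiety roots (-0.79 ± 0.22, adjusted p = 0.013). In cra2 its groups overlapped, at 1168, 858.1 and 819.7 CPM in deficit roots and 736.3, 1147 and 839.4 CPM in satiety roots. The falls of sequences 12 and 13 in A17 were lost without deficit library 1 or satiety library 3 (both), deficit library 3 or satiety library 2 (sequence 12) and deficit library 2 (sequence 13), at adjusted p up to 0.119. Both also missed the threshold with upper-quartile scaling, and sequence 13 with library totals.

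miR171 opposite-arm form 1 had 656.6, 590.0 and 663.2 CPM in cra2 deficit roots and 750.9, 788.4 and 788.4 CPM in cra2 satiety roots, against the higher deficit level in A17 given above (difference 0.73 ± 0.27, unadjusted p = 0.013). miR2111 form 1 rose in A17 (1.04 ± 0.31) and stood at -0.20 in cra2 (adjusted p = 0.737), and the difference of 1.24 ± 0.50 had an unadjusted p of 0.0209. The miR2111 sum changed by 1.16 in A17 and by 0.60 in cra2 (adjusted p = 0.215), and opposite-arm form 3 passed in cra2 as well (1.47, adjusted p = 0.0283). Levels in cra2 roots were low, so these cra2 changes are imprecise. The sum averaged 91.28 ± 27.0 CPM under deficit and 60.43 ± 35.0 CPM under satiety there (SD, n = 3 each). In A17 roots it averaged 680.1 and 303.8 CPM, in the same order.

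**Figure D4:**
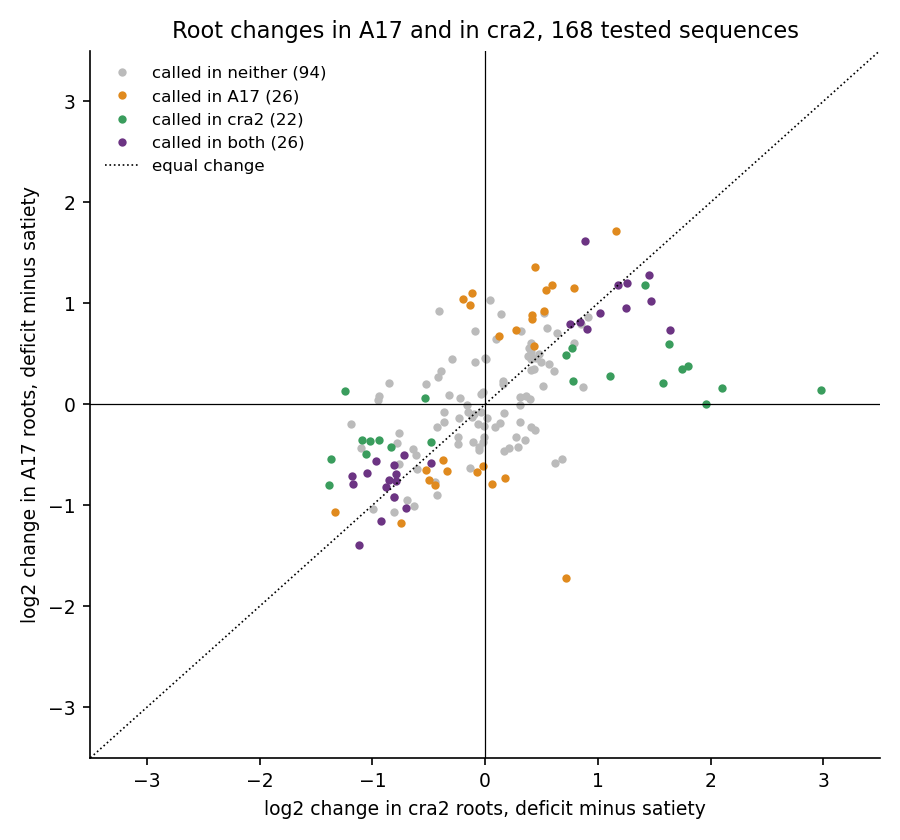
Log2 change, deficit minus satiety, in A17 roots (vertical) against cra2 roots (horizontal) for the 168 tested sequences, coloured by the genotype in which they were called, with a dotted line of equal change. The 26 sequences called in both lie in the quadrants of equal sign.

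In A17 shoots several sequences of the root response moved the other way, among them miR319, miR172, miR5213, miR396 form 2 and the opposite arm of miR168. A model over all 24 libraries found 54 of 200 sequences (27%) whose response differed between A17 roots and A17 shoots (37 more positive in roots, 17 more negative). The split depends on the scaling, because TMM left a median difference of 0.31 and RLE one of 0.01. With RLE 25 were more positive and 32 more negative. DESeq2 called 58. Of the 52 sequences called in A17 roots 31 passed, 17 that were higher in roots and 14 that were lower. The root change is a term of this difference, so its direction in them is no separate result.

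miR319 form 2 rose in roots and fell by 1.26 ± 0.31 in shoots (adjusted p = 0.0114), a difference of 2.45 ± 0.44 (adjusted p = 0.000712). miR172 form 1 fell by 0.93 ± 0.24 in shoots (difference 1.79 ± 0.34, adjusted p = 0.000823), and miR5213 form 1 fell by 0.92 ± 0.22 (difference 1.68 ± 0.31, adjusted p = 0.000712). In the opposite direction, miR396 form 2 rose by 1.02 ± 0.24 in shoots (difference -1.49 ± 0.34, adjusted p = 0.00298). The opposite arm of miR168 rose there by 0.89 ± 0.29 (difference -2.01 ± 0.41, adjusted p = 0.00139). Not all did so. miR2111 opposite-arm form 5 had a positive change in both organs (1.51 ± 0.52 in shoots), and for the 6 tested miR2111 sequences no difference between organs passed. The miR2111 sum changed by 1.49 ± 0.60 in shoots and did not pass there (edgeR adjusted p = 0.0766). Its difference between organs, -0.50 ± 0.84, is too imprecise to show an equal response. miR399 fell in both: form 2 changed by -2.68 ± 0.66 and form 1 by -1.18 ± 0.31 in shoots (adjusted p = 0.0114 each), and neither difference passed (adjusted p = 0.413 and 0.854).

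Sequences 67 and 32 were among the 4 per direction with the largest called differences between organs. On the scale of the fit over 24 libraries, unassigned sequence 67 had 34.28, 22.73 and 25.14 CPM in root deficit libraries and 8.357, 18.51 and 8.354 CPM in root satiety libraries. In shoots it had 9.103, 8.130 and 9.215 CPM under deficit and 29.47, 23.17 and 17.36 CPM under satiety, so each organ separated the groups, in opposite directions (difference 2.62 ± 0.51, adjusted p = 0.00106). Unassigned sequence 32 had 21.06, 50.70 and 66.68 CPM in root deficit libraries and 105.0, 94.08 and 153.2 CPM in root satiety libraries. In shoots it had 110.5, 240.3 and 195.0 CPM under deficit and 25.57, 27.10 and 116.0 CPM under satiety, with 1 satiety library above the lowest deficit library (difference -3.04 ± 0.97, adjusted p = 0.0253).

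**Figure D5:**
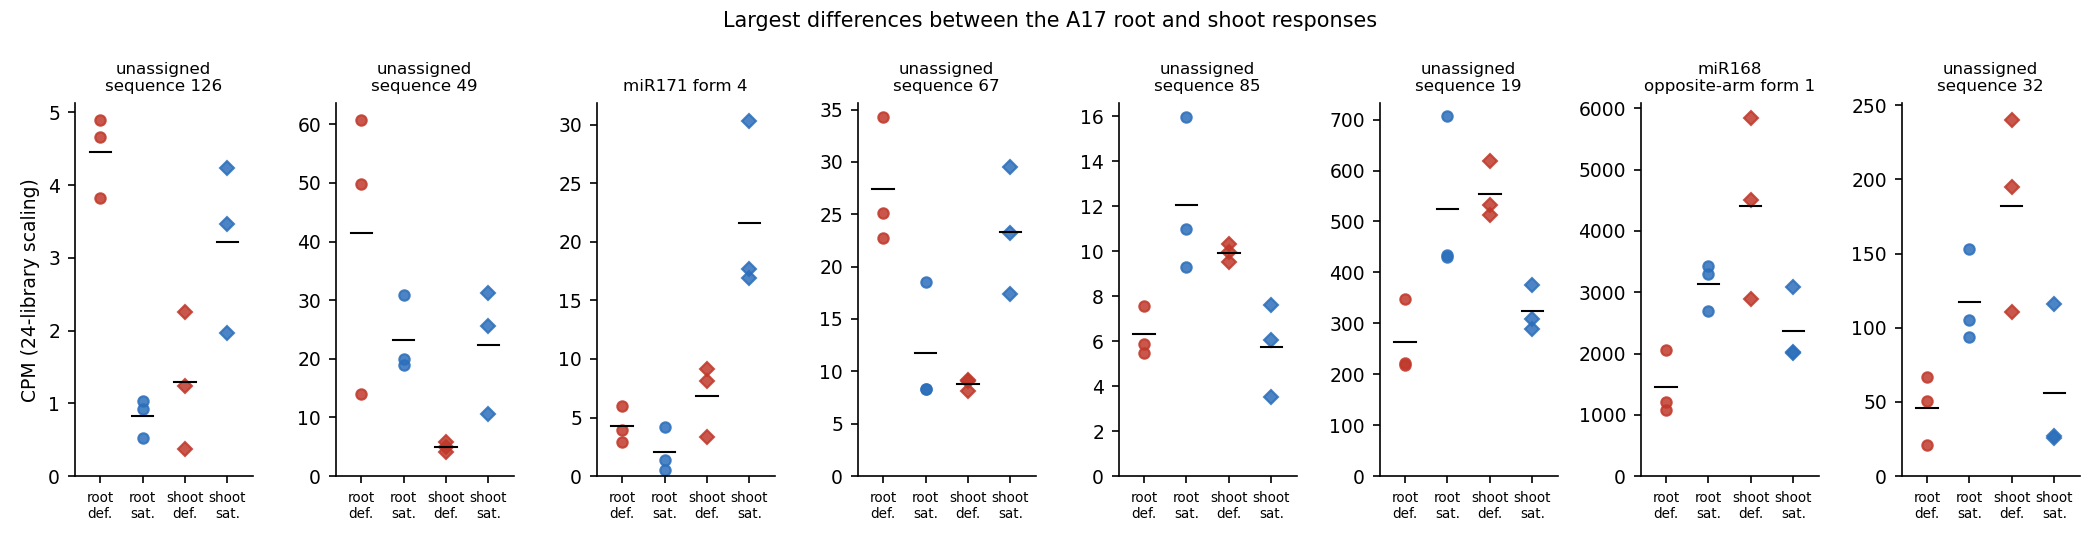
CPM on the scale of the fit over 24 libraries, in A17 roots (circles) and A17 shoots (diamonds), deficit in red and satiety in blue with group means as bars, for the 4 sequences per direction with the largest called difference between organs. Panels run in the order of that difference, with unassigned sequence 126 at one end (3.67) and unassigned sequence 32 at the other (-3.04).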

How the data were processed

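Per the labels' protocols, NEXTFLEX small RNA libraries were made from miRNeasy extracts and size-selected. Per the submitters' processing notes, cutadapt was used, with no version given. For the aligner, the counting tool and the build, nothing is given in the sources used here. Each deposited file lists the authors' counts of reads for every sequence, which were taken unchanged. CPM, fits and family names were computed here. Family names came from short key motifs (at most 1 mismatch) and duplex pairing (2-nt overhang, at most 3 mismatches and 4 GU pairs, at least 17 positions), written from textbook knowledge and adjusted after sequences and group levels were seen. Calls come from the quasi-likelihood test of edgeR 4.0.16 (robust, TMM, filterByExpr with minimum count 10) on 12 root libraries with 4 group means, Benjamini-Hochberg adjusted over all sequences. Differences between organs used all 24 libraries. The fit was tried on simulated counts with a single dispersion and as many rises as falls. That trial cannot show how the calls depend on the scaling. Lengths, arms and ratios used exact permutation tests.

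Members, lists and rules were chosen with earlier results of these data known. Per-library values are given for the 8 largest called rises and falls, the 5 most abundant sequences, the main form of each called family, both arms of families with a called opposite arm, and up to 4 sequences per direction (or the 3 smallest p) in the contrasts with cra2 and shoots; miR166 form 2, both forms of miR167, miR172 form 2, miR2111 opposite-arm form 3 and unassigned sequence 77 were added after their values were seen. For 1 sequence among the largest falls, which stays in all counts, values are not reported here. Alternatives were other scalings, DESeq2 1.42.0, other filters, each library left out, the miR159 sequence left out, identical profiles entered once, other library sets and a replicate block.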

Additional observations from a re-analysis of the deposited data

Results flagged for a closer look

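In A17, 54 of 200 sequences had a response to local deficit that differed between roots and shoots (edgeR quasi-likelihood test of the interaction). The 4 with the largest positive differences, root minus shoot in log2, were unassigned sequence 126 (3.67), unassigned sequence 49 (3.01), miR171 form 4 (2.74) and unassigned sequence 67 (2.62). The 4 with the largest negative ones were unassigned sequence 32 (-3.04), miR168 opposite-arm form 1 (-2.01), unassigned sequence 19 (-1.77) and unassigned sequence 85 (-1.72). Unassigned sequence 126 rests on few counts, with 4.897, 4.662 and 3.826 CPM in root deficit libraries and 0.5223, 1.028 and 0.9282 CPM in root satiety libraries. miR171 form 4 is as rare in roots, at 3.918, 2.914 and 6.012 CPM under deficit and 4.179, 0.5141 and 1.392 CPM under satiety. Unassigned sequence 49 fell in shoots, where it had 5.793, 4.968 and 4.055 CPM under deficit and 31.21, 25.53 and 10.58 CPM under satiety. Unassigned sequence 85 had 5.877, 7.575 and 5.466 CPM in root deficit libraries and 10.97, 15.94 and 9.282 CPM in root satiety libraries, and its root change did not pass (edgeR adjusted p = 0.059).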

How the results depend on the processing

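Leaving out 1 library gave 16 to 46 called sequences in A17 roots, 3 to 11 called families, 0 to 1 differences from cra2 and 36 to 62 differences from shoots. The replicate block gave 55 called sequences (all 52 kept) with 11 families, 0 differences from cra2 and 60 from shoots. Same-numbered deficit and satiety libraries correlated at 0.18, 0.08 and 0.19 in their deviations, and differently numbered ones at -0.16 to -0.01. Each deficit library thus correlated best with its own number. Deviations from a group mean cancel out within the group, so a positive value for the shared number by itself pushes the other values down. Whether the numbers mark a pairing was not tested, and no label says so. Without the miR159 sequence the deficit minus satiety share, in percentage points, became 0.967 (20 nt), -2.34 (21 nt), 1.30 (22 nt), -0.00594 (23 nt) and 0.0786 (24 nt), because the total shrinks.

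Signs turned only for changes that had not passed. The miR159 sequence (-0.08) became 0.20 with upper-quartile scaling and 0.01 with only the 6 libraries, and leaving out 1 library gave -0.19 to 0.11. The miR159 sum holds the counts of that sequence alone, fitted with the scaling factors of the family table. The sum (0.13) became -0.01 with RLE scaling and DESeq2, 0.00 with library totals, -0.08 with the 10 CPM filter and with the sequence table's factors, and -0.04 with only the 6 libraries. The miR1510 sum (0.06) became -0.07 (RLE, DESeq2), -0.06 (library totals), -0.02 (no filter), -0.14 (10 CPM filter), -0.11 (only the 6 libraries) and -0.15 (sequence table's factors). The miR167 sum (0.01) became -0.13 (RLE, DESeq2), -0.12 (library totals), -0.02 (upper quartile), -0.08 (no filter), -0.20 (10 CPM filter and sequence table's factors) and -0.16 (only the 6 libraries). The miR169 sum (0.17) became -0.04 (10 CPM filter), -0.01 (only the 6 libraries) and -0.05 (sequence table's factors). Leaving out 1 library gave -0.12 to 0.07 for the miR159 sum, -0.14 to 0.00 for miR1510, -0.20 to -0.01 for miR167, -0.06 to 0.09 for miR169 and -0.34 to 0.14 for miR2119 (-0.03 with all libraries). The cause was not tested.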
